A study of Mus musculus with 6 samples.

Results

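The genes described here are 10 genes of cystine uptake, glutathione metabolism and the control of ferroptosis, Slc7a11, Slc3a2, Gclc, Gclm, Gss, Gsr, Gpx4, Ggt5, Acsl4 and Aifm2. They were chosen by name for their roles, out of 21899 genes in the table of read counts, and all 10 passed the filter on low counts, Ggt5 only through the sh-TonEBP libraries. RNA-seq of poly(A) RNA compared BV2 cells, an immortalized mouse microglial line, that carried a lentiviral scrambled shRNA (sh-NC, 3 libraries) with BV2 cells that carried a lentiviral shRNA against TonEBP, the transcription factor encoded by Nfat5 (sh-TonEBP, 3 libraries). Both groups were infected with a lentivirus and selected with puromycin, there was no uninfected group, and a single shRNA stood for the knockdown. Separate cultures are not stated for the libraries within a group, and p-values therefore cover the library-to-library spread alone.

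Cells import cystine in exchange for glutamate through system xc-, a heterodimer of the xCT light chain Slc7a11 and the heavy chain Slc3a2. Cystine is reduced to cysteine, joined to glutamate by glutamate-cysteine ligase and then to glycine by glutathione synthetase, and the glutathione that results is used by Gpx4 to reduce lipid hydroperoxides in membranes. Ferroptosis is the iron-dependent death that follows when phospholipids with polyunsaturated chains are oxidized faster than they are repaired, and microglia, which handle iron and oxidants in the injured brain, are among the cells in which it is studied.

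The libraries held 13621188 to 16140042 counts. Levels are given in CPM, TMM-normalized counts relative to library size, and with counting error alone a gene without counts could still lie at up to 0.19 to 0.22 CPM. In sh-NC Nfat5 had 9641, 11640 and 9652 counts, against 3894, 4631 and 5257 in sh-TonEBP. The groups did not overlap, and the log2 fold change was -1.14 (SE 0.16, edgeR adjusted p = 0.00016), or -0.56 and -0.75 in fits with offsets that remove each library's trend on transcript length or on GC content. The myeloid markers went against the microglial label. Of 14 such genes, 9 lay under 1 CPM in every library, among them the defining genes Spi1, Ptprc, Itgam, Aif1, Cx3cr1 and Trem2, and P2ry12 was at 0 throughout. The 14 summed to 101 to 107 CPM in sh-NC and 109 to 132 CPM in sh-TonEBP, with 2 called higher and 1 lower of 4 tested. The sum of 10 fibroblast markers moved with the groups, from 472 to 514 CPM in sh-NC to 1568 to 1727 CPM in sh-TonEBP. Of 7 tested, 6 were higher and 0 lower, with Thy1 at 0 in every library, and Fap and Postn under 1 CPM in every library. Most of that sum was Col3a1, a fibrillar collagen, at 342 ± 6.35 CPM in sh-NC and 1372 ± 95.03 CPM in sh-TonEBP. Col1a2 went the other way without a call, from 3.14 ± 0.72 to 2.09 ± 0.48 CPM (log2 fold change -0.59, edgeR adjusted p = 0.11). With GC content offsets 6 fibroblast markers were higher and 1 lower. Dcn, at 0.13 CPM in sh-NC, could pass the filter only where it was high. Col1a1, also called higher (0.75 to 2.64 CPM), could not pass it on the sh-NC libraries alone. Of 8 epithelial markers, which summed to 618 to 752 CPM in sh-NC and 1209 to 1518 CPM in sh-TonEBP, 1 of 2 tested was higher, 6 were under 1 CPM in every library and Krt14 was at 0. The part of these cell type markers in the results was not tested. Fold changes also moved with transcript length and base composition, with a Spearman correlation over 11929 genes of -0.30 with length and 0.43 with GC content, so values with length offsets or GC content offsets are given where they end or make a call or move a called log2 fold change by over 1.5 times. In bulk RNA, fewer cells that express a gene and less RNA per cell cannot be told apart.

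Of the 10 genes, 3 were higher in sh-TonEBP (Gss, Gpx4 and Ggt5), 3 were lower (Slc7a11, Gclc and Acsl4) and 4 did not pass an edgeR adjusted p of 0.05 (Slc3a2, Gclm, Gsr and Aifm2). Over all 11943 genes tested 52.5% were called, 26.3% higher and 26.2% lower, so a count of 6 in 10 is near that background. The groups did not overlap for 7 of the 10, beside 62.7% of all genes, with 3 members higher (31.2% of all genes) and 4 lower (31.5%). The cutoffs of the study, more than 2-fold and an unadjusted p under 0.05, were also applied to the edgeR fit. With them Ggt5 was higher and Slc7a11 lower, 1 in each direction, beside 6.38% and 8.53% of all genes. The log2 fold changes of Slc7a11 and Ggt5 were the lowest and highest of the 10, and the remaining 8 lay between -0.92 and 0.98. Ggt5, which was near 0 in sh-NC, could pass the filter only where it was high, so its call is part of how it came to be tested. The median over the 10 was 0.08, beside 0.00 over all genes tested.

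**Figure D1:**
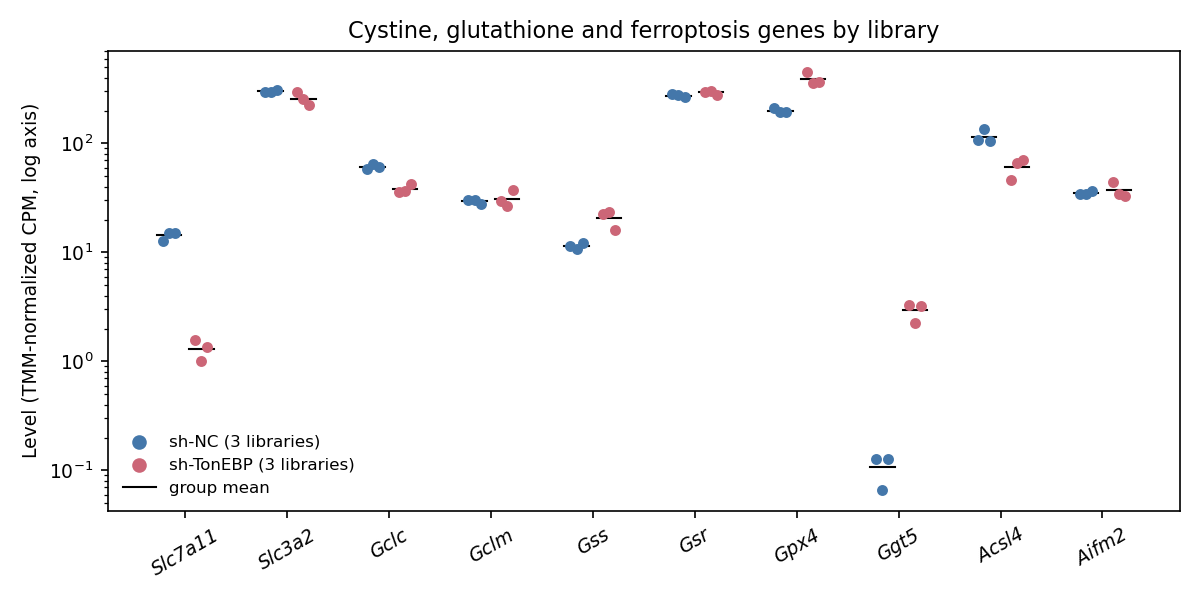
Level of each of the 10 genes in TMM-normalized CPM on a log axis, with 1 point per library and a line at the group mean. Slc7a11 lies at 12.8 to 15.2 CPM in sh-NC and 1.01 to 1.57 CPM in sh-TonEBP, while Ggt5 goes from 0.066 to 0.13 CPM up to 2.26 to 3.32 CPM.

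Slc7a11, the light chain that moves cystine and glutamate, fell most of the 10. It gave 200, 228 and 237 counts in sh-NC and 25, 16 and 19 counts in sh-TonEBP, which after TMM scaling are 12.8, 15.1 and 15.2 CPM against 1.57, 1.01 and 1.37 CPM. Every sh-TonEBP library lay far under every sh-NC library. The mean went from 14.4 ± 1.33 to 1.31 ± 0.28 CPM (SD, n = 3 each), a 10.9-fold lower level with a log2 fold change of -3.44 (SE 0.22, edgeR adjusted p = 9.7e-07). The pooled counts, 665 against 60, gave a ratio of 10.9 with a 95% exact interval of 8.40 to 14.5 that covers counting error only. Over 16 alternatives, which include leaving out each library, the log2 fold change stayed between -3.60 and -2.93.

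The promoter windows of Slc7a11 and of Gclm are shown because they were the only members' windows with a match to a motif searched for. Windows run from 250 bases before to 50 bases after the gene's start, come from RefSeq on the older build GRCm38.p6, and were found for 7 of the 10 genes (not for Gclc, Gsr and Ggt5). Capitals mark the matched letters.
Slc7a11, chr3:50443564-50443863, minus strand: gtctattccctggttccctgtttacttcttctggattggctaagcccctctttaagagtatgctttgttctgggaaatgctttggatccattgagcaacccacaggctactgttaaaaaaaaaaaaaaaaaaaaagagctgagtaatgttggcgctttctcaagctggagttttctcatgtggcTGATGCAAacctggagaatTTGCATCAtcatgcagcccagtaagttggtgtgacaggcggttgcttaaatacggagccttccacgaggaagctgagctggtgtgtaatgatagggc
Gclm, chr3:122245307-122245606, plus strand: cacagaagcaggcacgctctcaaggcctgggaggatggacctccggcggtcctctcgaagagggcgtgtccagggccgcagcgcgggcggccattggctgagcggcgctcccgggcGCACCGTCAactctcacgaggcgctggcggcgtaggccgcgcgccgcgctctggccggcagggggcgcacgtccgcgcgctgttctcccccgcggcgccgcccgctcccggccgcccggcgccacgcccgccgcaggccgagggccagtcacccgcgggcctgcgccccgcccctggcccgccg
The letters TGATGNAA, the amino acid response element through which ATF4 acts, were matched at position -66 on the strand of Slc7a11 and at position -47 on the opposite strand, counted from the start of the gene. They occur on either strand in 3.97% of 32851 windows of this length. The letters TGACNNNGC, the antioxidant response element read by NRF2, were matched at -134 of Gclm on the opposite strand and occur in 12.4% of windows. The letters TGGAAA, the core of the element that TonEBP binds, occur in 21.4% of windows and were in none of the 10 windows of the members. No motif overlapped another. A match is a description of the letters, and nothing about binding follows from a match or from its absence.

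Slc3a2 encodes the heavy chain that carries xCT, and also the large neutral amino acid carriers, to the cell surface. Its level was 298, 299 and 307 CPM in sh-NC and 294, 255 and 225 CPM in sh-TonEBP. The groups did not overlap, but the highest sh-TonEBP library came close to the sh-NC libraries. The log2 fold change was -0.22 (SE 0.12, 95% interval -0.46 to 0.01) and did not pass the test (edgeR adjusted p = 0.13). It passed with GC content offsets (-0.45, adjusted p = 0.00064) and without sh-TonEBP replicate 1 (-0.33, adjusted p = 0.024). The heavy chain was thus far more abundant than the light chain in both groups, at 107 against 1.56 CPM per kilobase of transcript in sh-NC. Within a library there were 76.3, 64.8 and 66.3 Slc3a2 counts per Slc7a11 count in sh-NC, each divided by transcript length, and 616, 830 and 539 in sh-TonEBP. The groups did not overlap, the difference was 3.24 on the log2 scale, and the exact two-sided permutation p was 0.1, the smallest that 3 against 3 libraries can give. This ratio and the later ones were taken without the offsets for trends on transcript length or GC content. With GC content offsets the log2 fold changes were -0.45 for Slc3a2 and -2.93 for Slc7a11.

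Glutamate-cysteine ligase makes the first and rate-limiting step of glutathione synthesis, with Gclc as its catalytic and Gclm as its modifier subunit. Gclc gave 57.7, 64.5 and 61.0 CPM in sh-NC and 36.0, 36.4 and 42.3 CPM in sh-TonEBP. All 3 sh-TonEBP libraries were lower than all 3 sh-NC libraries. The mean fell from 61.1 ± 3.4 to 38.2 ± 3.50 CPM (log2 fold change -0.68, SE 0.12, edgeR adjusted p = 0.00062), and the log2 fold change was -0.75 to -0.57 over the 16 alternatives.

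The modifier subunit did not follow in the same way. Gclm gave 30.1, 30.4 and 27.6 CPM in sh-NC and 29.6, 26.9 and 37.1 CPM in sh-TonEBP, so that the groups overlapped. Its log2 fold change of 0.09 (SE 0.14, 95% interval -0.20 to 0.37) did not pass the test (edgeR adjusted p = 0.63). The estimate depended on the processing: it was 0.53 and passed as higher with GC content offsets (adjusted p = 0.0031), and -0.05 without sh-TonEBP replicate 3. Per transcript length, the libraries held 0.32, 0.29 and 0.28 Gclm counts per Gclc count in sh-NC and 0.50, 0.45 and 0.54 in sh-TonEBP. This ratio of modifier to catalytic subunit was higher in all 3 sh-TonEBP libraries, by 0.75 on the log2 scale (exact two-sided permutation p = 0.1, the smallest possible).

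Gss, glutathione synthetase, which adds glycine in the second step, moved opposite to Gclc. It gave 178, 162 and 193 counts in sh-NC and 358, 371 and 221 counts in sh-TonEBP, or 11.4, 10.7 and 12.3 CPM against 22.4, 23.3 and 15.9 CPM. The groups did not overlap, and sh-TonEBP replicate 3 lay nearer to sh-NC than the others. The mean rose from 11.5 ± 0.80 to 20.6 ± 4.05 CPM (log2 fold change 0.84, SE 0.17, edgeR adjusted p = 0.0016). With GC content offsets the log2 fold change was 0.53 (adjusted p = 0.0066).

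Gsr, glutathione reductase, returns oxidized glutathione to its reduced form with NADPH. It was among the more abundant of the 10, with 281, 276 and 265 CPM in sh-NC and 299, 303 and 277 CPM in sh-TonEBP. The groups overlapped. The log2 fold change was 0.10 (SE 0.10, 95% interval -0.11 to 0.30, edgeR adjusted p = 0.45), and it was 0.04 to 0.14 over the alternatives.

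**Figure D2:**
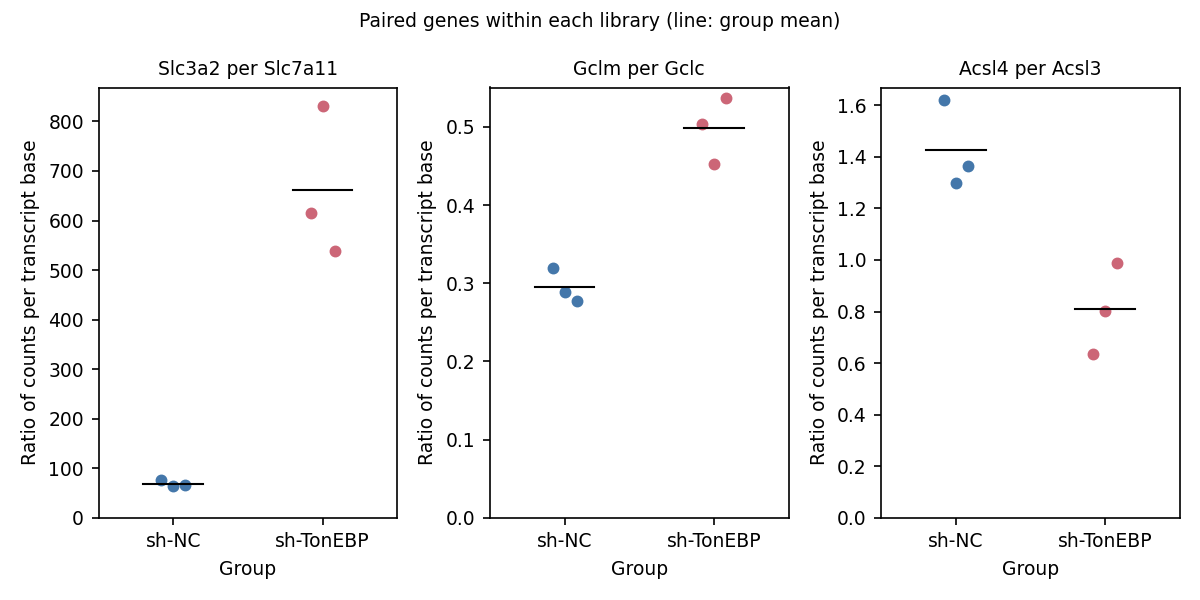
Ratio of counts per transcript base between genes that act together or in parallel, with 1 point per library, a line at the group mean and axes from 0. The ratios carry no offsets for trends on transcript length or GC content. Slc3a2 per Slc7a11 is 64.8 to 76.3 in sh-NC and 539 to 830 in sh-TonEBP, Gclm per Gclc 0.28 to 0.32 and 0.45 to 0.54, and Acsl4 per Acsl3 1.3 to 1.62 and 0.64 to 0.99.

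Gpx4, the selenoenzyme that reduces phospholipid hydroperoxides with glutathione, was the most abundant of the 10 per transcript length in both groups. It gave 210.4, 195 and 193 CPM in sh-NC and 455, 361 and 365 CPM in sh-TonEBP. Every sh-TonEBP library exceeded every sh-NC library. The mean rose 1.97-fold, from 199.5 ± 9.45 to 394 ± 53.4 CPM (log2 fold change 0.98, SE 0.12, edgeR adjusted p = 6.1e-05). Its transcript of 995 bases is short, and the fifth of genes with the shortest transcripts had a median log2 fold change of 0.32. With length offsets the log2 fold change was 0.56 (adjusted p = 0.003) and with GC content offsets 0.59 (adjusted p = 5.3e-05), past the threshold in each case.

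Ggt5, a membrane-bound gamma-glutamyltransferase that cleaves glutathione and leukotriene C4 outside the cell, was near the limit of detection in sh-NC. It gave 2, 1 and 2 counts there and 53, 36 and 45 counts in sh-TonEBP, or 0.13, 0.066 and 0.13 CPM against 3.32, 2.26 and 3.24 CPM. The sh-NC libraries were all at or under 3 counts, and the sh-TonEBP libraries were all well above. The pooled counts were 5 and 134, a ratio of 27.1 with a 95% exact interval of 11.3 to 84.9 for counting error only. The gene rose with a log2 fold change of 4.67 (SE 0.47, edgeR adjusted p = 1.7e-05), and this was 4.44 to 4.83 over the 16 alternatives. Its level in sh-TonEBP stayed low beside the other genes, at 0.67 CPM per kilobase.

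Acsl4 encodes the acyl-CoA synthetase that prepares arachidonate and other polyunsaturated fatty acids for phospholipids. It gave 107, 134 and 105 CPM in sh-NC and 46.1, 65.9 and 70.7 CPM in sh-TonEBP. The groups were well apart, with sh-TonEBP replicate 1 lowest. The mean fell from 115 ± 16.6 to 60.9 ± 13.1 CPM (log2 fold change -0.92, SE 0.16, edgeR adjusted p = 0.0007). With GC content offsets the log2 fold change was smaller, -0.35 (adjusted p = 0.0039). Acsl3, which prefers monounsaturated fatty acids, had a log2 fold change of -0.12 (adjusted p = 0.52), with a sign that depended on the processing. The ratio of Acsl4 to Acsl3 per transcript length was 1.62, 1.3 and 1.36 in sh-NC and 0.64, 0.80 and 0.99 in sh-TonEBP. It was above 1 in each sh-NC library and under 1 in each sh-TonEBP library, a difference of -0.84 on the log2 scale (exact two-sided permutation p = 0.1, the smallest possible).

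Aifm2 encodes FSP1, which reduces coenzyme Q and so limits lipid peroxidation without glutathione. It gave 34.5, 34.4 and 36.8 CPM in sh-NC and 44.0, 34.7 and 33.1 CPM in sh-TonEBP. The groups overlapped, and sh-TonEBP replicate 1 alone stood above the rest. The log2 fold change was 0.08 (SE 0.14, 95% interval -0.19 to 0.35, edgeR adjusted p = 0.64), and it was negative with GC content offsets and without sh-TonEBP replicate 1.

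**Figure D3:**
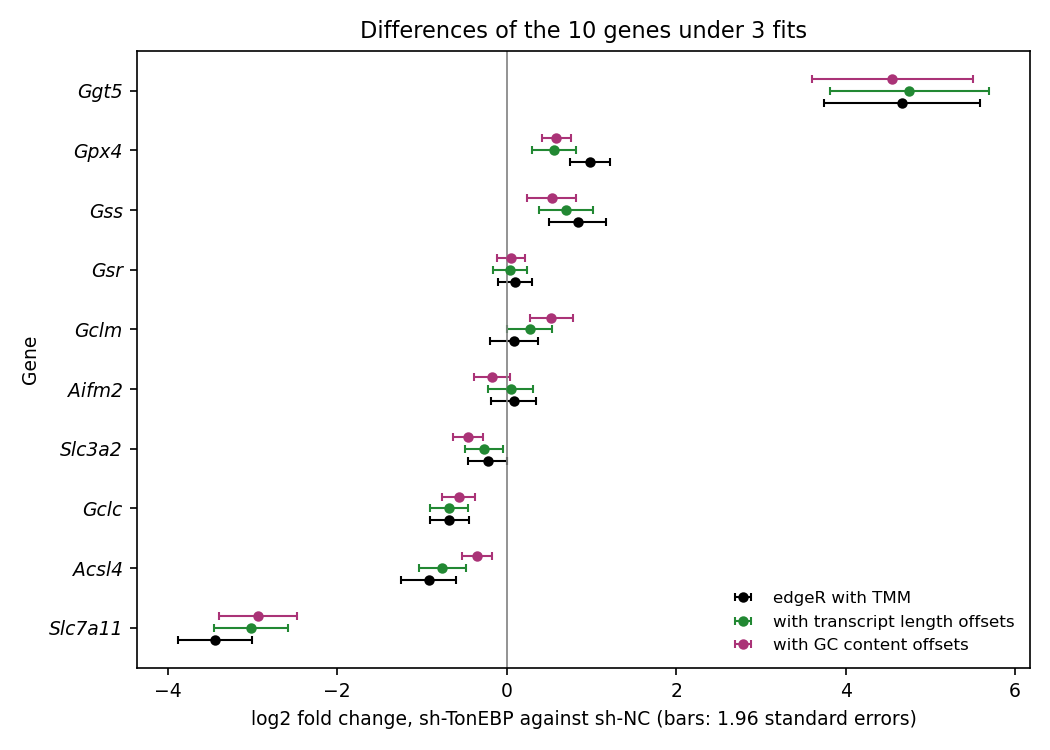
Log2 fold change of sh-TonEBP against sh-NC for the 10 genes in edgeR with TMM, and with offsets for transcript length or for GC content, where bars are standard errors scaled to 95% intervals. The values of Slc7a11 (-3.44, -3.02 and -2.93) and Ggt5 (4.67, 4.75 and 4.55) stand apart from the other genes in all 3 fits, and those of Gclm and Aifm2 lie near 0 without offsets.

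Levels were then compared between the genes per transcript length. In sh-NC the order was Gpx4 (200.5 CPM per kilobase), Slc3a2 (107), Gsr (103), Acsl4 (21.8), Gclc (17.8), Aifm2 (11.4), Gss (5.86), Gclm (5.25), Slc7a11 (1.56) and Ggt5 (0.024), and the library ranges of no neighbours overlapped. In sh-TonEBP Gpx4 stood at 396 CPM per kilobase, followed by Gsr at 110 and Slc3a2 at 91.7, whose ranges overlapped. Aifm2, Acsl4, Gclc and Gss lay between 10.5 and 12.1 CPM per kilobase with neighbours that overlapped, and Gclm at 5.59. Slc7a11, at 0.14 CPM per kilobase, was then the lowest of the 10, under Ggt5 at 0.67.

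Among other amino acid carriers, Slc1a5 and Slc1a4, neutral amino acid exchangers that carry glutamine, alanine or serine, fell along with Slc7a11. Slc1a5 gave 164, 134 and 165 CPM in sh-NC and 89.9, 83.5 and 77.8 CPM in sh-TonEBP (log2 fold change -0.88, edgeR adjusted p = 0.00011). Slc1a4 went from 80.7 ± 4.07 to 46.8 ± 6.58 CPM (log2 fold change -0.79, adjusted p = 0.00033), and the groups did not overlap for either gene. Slc7a5, the other main partner of Slc3a2, had a log2 fold change of -0.22 (adjusted p = 0.14), the same as Slc3a2 itself, and likewise passed as lower with GC content offsets (-0.55) and without sh-TonEBP replicate 1 (-0.32). Of 13 carriers listed, 5 were tested, and 2 were lower (40%) and 0 higher, beside 26.2% lower and 26.3% higher over all genes tested. The median of the carriers was -0.22, and 1 carrier was higher without sh-NC replicate 3.

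Cysteine can also be made within the cell from methionine by transsulfuration. Cth, cystathionine gamma-lyase, which releases cysteine in its last step, gave 22.3, 26.0 and 23.7 CPM in sh-NC and 3.95, 4.34 and 4.54 CPM in sh-TonEBP. The groups were far apart, with a log2 fold change of -2.49 (SE 0.16, edgeR adjusted p = 9.9e-07). Cbs, the enzyme before it, was at 1.01 ± 0.32 and 0.52 ± 0.21 CPM (log2 fold change -0.94, adjusted p = 0.1). Of the 14 tested genes of methionine, cysteine and sulfide metabolism, 6 were higher, 1 (Cth) was lower and 7 did not pass, with a median of 0.30. This is 42.9% higher and 7.14% lower, beside 26.3% and 26.2% of all genes. Without sh-TonEBP replicate 3, 2 were lower. The higher genes included Ethe1 (0.76, and 0.39 with GC content offsets) and Tst (2.03 from 0.84 to 3.46 CPM), which oxidize or detoxify sulfide and cyanide in mitochondria. Tst, and Gnmt among the other higher genes (0.37 to 1.34 CPM), could not pass the filter on the sh-NC libraries alone. Their calls are thus part of how they came to be tested.

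In glutathione breakdown and transport, including mitochondrial carriers, 2 of 13 tested genes were higher (15.4%) and 4 lower (30.8%), beside 26.3% and 26.2% of all genes. The median was -0.14, and 1 gene was higher without sh-NC replicate 2, sh-TonEBP replicate 1 or sh-TonEBP replicate 2. Chac1, which degrades glutathione in the cytosol, gave 12.9, 11.4 and 17.1 CPM in sh-NC and 7.08, 5.97 and 4.54 CPM in sh-TonEBP (log2 fold change -1.23, edgeR adjusted p = 0.00057). Abcc1, an exporter of glutathione and its conjugates, fell from 292 ± 8.37 to 170 ± 18.7 CPM (-0.78, adjusted p = 0.00018, and -0.50 with length offsets). Oplah, which opens oxoproline to glutamate, rose from 12.3 ± 1.61 to 21.1 ± 5.71 CPM (0.79, adjusted p = 0.0053, and 0.41 with GC content offsets), and Cndp2, which splits cysteinylglycine, rose with overlapping groups (0.47, adjusted p = 0.024), a call lost with GC content offsets (0.21) and without sh-NC replicate 2 (0.35), sh-TonEBP replicate 1 (0.36) or sh-TonEBP replicate 2 (0.46). Ggt1, the main gamma-glutamyltransferase of many tissues, was at 0.35 and 0.28 CPM and was not tested. Ggt7, another gene of the family and more abundant than Ggt5, fell from 10.8 ± 2.46 to 4.75 ± 0.74 CPM (-1.18, adjusted p = 0.00086), while Ggt5 was higher.

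Among enzymes that use glutathione or thioredoxin or supply NADPH, 8 of 21 tested genes were higher and 1 lower, with a median of 0.16. These are 38.1% and 4.76%, beside 26.3% and 26.2% of all genes. The count of lower genes was 2 in DESeq2, with library totals, a minimum mean of 1 CPM, or length or GC content offsets. It was 0 without sh-TonEBP replicate 1 and at the study's cutoffs. Gpx3, 1 of the higher genes (0.47 to 1.82 CPM), could not pass the filter on the sh-NC libraries alone. Gpx1, the cytosolic glutathione peroxidase, gave 151, 119 and 126 CPM in sh-NC and 302, 276 and 278 CPM in sh-TonEBP, with no overlap (log2 fold change 1.11, edgeR adjusted p = 2.5e-05, and 0.73 with length offsets). Pgd, an NADPH source of the pentose phosphate pathway, rose from 126 ± 19.1 to 272 ± 35.7 CPM (1.12, adjusted p = 6.3e-05), while G6pdx, which acts before it, had a log2 fold change of 0.19 (adjusted p = 0.21). Prdx6, a peroxiredoxin that also reduces phospholipid hydroperoxides, had 0.01, with a sign that depended on the processing. Txnrd1, thioredoxin reductase, was at 685 ± 15.6 and 563 ± 44.8 CPM, which did not pass the test although the groups did not overlap (-0.28, adjusted p = 0.05), but did in DESeq2 (-0.28, adjusted p = 0.039) and with GC content offsets (-0.31, adjusted p = 0.013). Gpx8, the only lower gene of the list (-0.42, adjusted p = 0.02), was no longer called with GC content offsets (-0.13, adjusted p = 0.3) or without sh-TonEBP replicate 1 (-0.29, adjusted p = 0.051), and was at -0.83 with length offsets.

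**Figure D4:**
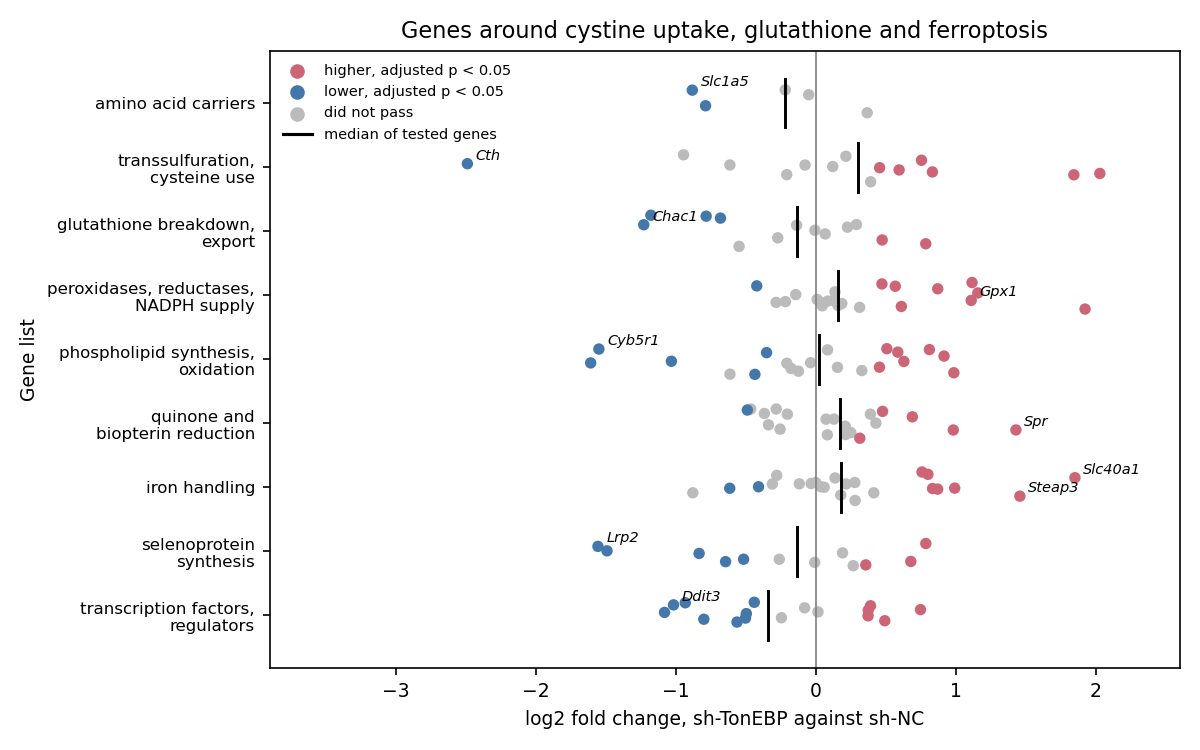
Log2 fold change of sh-TonEBP against sh-NC for each tested gene of 9 lists around cystine uptake, glutathione and ferroptosis, coloured by call at an edgeR adjusted p of 0.05, with a line at the median of each list. Medians lie between -0.34 (transcription factors and regulators) and 0.30 (transsulfuration and cysteine use), and Cth at -2.49 is the lowest point.

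In phospholipid synthesis and oxidation, 7 of 20 tested genes were higher (35%) and 5 lower (25%), beside 26.3% and 26.2% of all genes. The median was 0.02, and with GC content offsets 11 were higher and 6 lower. Aloxe3, among the lower genes (2.36 to 0.78 CPM), could not pass the filter on the sh-TonEBP libraries alone. Its call is thus part of how it came to be tested. Lpcat3, which places the acyl chains activated by Acsl4 into phospholipids, rose from 23.7 ± 1.65 to 44.8 ± 3.79 CPM (log2 fold change 0.92, edgeR adjusted p = 0.00013), opposite to Acsl4. The oxidoreductases Por and Cyb5r1, which pass electrons that can start lipid peroxidation, were called in opposite directions, Por at 0.81 (adjusted p = 0.00025, and 0.44 with GC content offsets) and Cyb5r1 at -1.55, from 129 ± 16 to 44.2 ± 8.12 CPM (adjusted p = 1.2e-05). Acsl6, another long-chain acyl-CoA synthetase, fell from 90.2 ± 0.64 to 44.2 ± 4.6 CPM (-1.03, adjusted p = 3.1e-05). The lipoxygenase Alox15 was at or under 0.25 CPM in every library and was not tested.

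For a list made up chiefly of genes of coenzyme Q and tetrahydrobiopterin synthesis and reduction, the shares over all genes were 26.3% higher and 26.2% lower. Beside Aifm2, 5 of 20 tested genes of this list were higher (25%) and 1 lower (5%), with a median of 0.17. These counts were 2 and 4 with length offsets and 3 and 2 with GC content offsets. The count of higher genes was 2 without sh-NC replicate 3 and 3 without sh-NC replicate 2, sh-TonEBP replicate 1 or sh-TonEBP replicate 2, and that of lower genes was 3 without sh-TonEBP replicate 3. Nqo1, a second quinone reductase and a target of NRF2, rose from 9.64 ± 0.70 to 19.0 ± 1.75 CPM (log2 fold change 0.98, edgeR adjusted p = 0.00027), and Spr, which completes biopterin synthesis, from 35.2 ± 7.76 to 95 ± 7.82 CPM (1.43, adjusted p = 2.5e-05). Coq2, an enzyme of coenzyme Q synthesis, fell (-0.49, adjusted p = 0.0037, and -0.75 with GC content offsets). Dhodh, which reduces coenzyme Q in mitochondria, and Gch1, the first enzyme of biopterin synthesis, had log2 fold changes of 0.25 (adjusted p = 0.24) and -0.20 (adjusted p = 0.19).

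In iron handling 7 of 23 tested genes were higher (30.4%) and 2 lower (8.70%), beside 26.3% and 26.2% of all genes. The median was 0.18, and with GC content offsets 11 were higher and 2 lower. Without sh-NC replicate 2, sh-NC replicate 3 or sh-TonEBP replicate 2, 1 was lower. The ferritin heavy chain Fth1, which stores iron in a form that does not react, gave 1624, 1548 and 1549 CPM in sh-NC and 3251, 3399 and 2742 CPM in sh-TonEBP. The groups were far apart (log2 fold change 0.99, edgeR adjusted p = 7.8e-05), as were those of the light chain Ftl1 (0.87, adjusted p = 0.00014, and 0.43 and 0.51 with length and GC content offsets). Steap3, which reduces endosomal iron, rose from 51.9 ± 0.31 to 143 ± 14 CPM (1.46, adjusted p = 3.5e-06), and Slc40a1, the iron exporter ferroportin, from 2.38 ± 0.64 to 8.61 ± 0.72 CPM (1.85, adjusted p = 6.7e-05). Fbxl5, which degrades iron regulatory protein, fell (-0.61, adjusted p = 0.00087) but not with GC content offsets (-0.14, adjusted p = 0.28), and the heme exporter Flvcr1 fell with overlapping groups (-0.41, adjusted p = 0.041), a call lost with either offset (-0.35 and -0.18) and without sh-NC replicate 2 or 3 (-0.42 and -0.34) or sh-TonEBP replicate 1 or 2 (-0.30 and -0.34). The transferrin receptor Tfrc (0.41, adjusted p = 0.088), the ferritin receptor Ncoa4 (-0.28, adjusted p = 0.061) and heme oxygenase Hmox1 (0.04, adjusted p = 0.88) did not pass. Tfrc did with length offsets (0.54, adjusted p = 0.018), GC content offsets (0.93, adjusted p = 1.6e-05), the replicate block (0.37, adjusted p = 0.049) or without sh-TonEBP replicate 1 (0.60, adjusted p = 0.0054).

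Gpx4 and Gpx1 are selenoproteins, and of 12 genes of selenium uptake and selenoprotein synthesis 3 were higher and 5 lower, with a median of -0.13. Their shares were 25% and 41.7%, beside 26.3% and 26.2% of all genes. The selenoprotein P receptors Lrp8 and Lrp2 fell from 87.6 ± 3.38 to 31.1 ± 3.03 CPM and from 60.9 ± 1.99 to 20.7 ± 1.11 CPM (log2 fold changes -1.49 and -1.56, edgeR adjusted p = 3.8e-06 and 2.8e-06), and with length offsets Lrp2 was at -0.91. Secisbp2, which recruits the selenocysteine machinery to the mRNA, fell as well (-0.83, adjusted p = 0.00064). Scly, which frees selenium from selenocysteine, Trnau1ap, which acts with the selenocysteine tRNA, and Sephs2, which makes selenophosphate, were higher at 0.79, 0.68 and 0.36 (adjusted p = 0.00054, 0.0008 and 0.032). Scly was at 0.46 with GC content offsets and Trnau1ap at 0.32 and 0.42 with length and GC content offsets, while Sephs2 did not pass with either offset (0.25 and 0.20) or without sh-NC replicate 1 or 3 (0.35 and 0.33) or sh-TonEBP replicate 1 or 2 (0.30 and 0.36).

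Of 16 tested regulators, 5 were higher (31.25%) and 8 lower (50%), beside 26.3% and 26.2% of all genes. The median was -0.34, and with GC content offsets 2 were higher and 9 lower. The count of higher genes was 2 without sh-NC replicate 3 and 3 without sh-NC replicate 2 or sh-TonEBP replicate 1. Atf4, the transcription factor of the amino acid response, gave 335, 253 and 327 CPM in sh-NC and 183, 226 and 211 CPM in sh-TonEBP. All sh-TonEBP libraries lay under all sh-NC libraries (log2 fold change -0.56, edgeR adjusted p = 0.0039), and Ddit3, which encodes CHOP and is induced by ATF4, fell from 24.6 ± 3.21 to 12.2 ± 0.50 CPM (-1.02, adjusted p = 0.00018). Nfe2l2, which encodes NRF2, had a log2 fold change of -0.08 (adjusted p = 0.64), while Keap1, its inhibitor, rose (0.75, adjusted p = 0.0011, and 0.39 with GC content offsets) and Bach1, which represses the same targets, fell (-0.50, adjusted p = 0.0065), though not past the threshold with length offsets (-0.30, adjusted p = 0.059). Trp53, whose protein represses Slc7a11, rose with overlapping groups (0.37, adjusted p = 0.032), but was not called with length (0.22) or GC content offsets (0.12), nor when any single library other than sh-TonEBP replicate 2 was left out (0.29 to 0.42). Bap1, a deubiquitinase that also represses Slc7a11, rose at 0.49 (adjusted p = 0.0046) but did not pass with GC content offsets (0.20, adjusted p = 0.12), and Mdm2, an inhibitor and target of p53, fell from 114 ± 6.21 to 53.9 ± 7.21 CPM (-1.08, adjusted p = 3.5e-05).

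The amino acid response letters seen in the window of Slc7a11 were then looked up in the windows of all the listed pathway genes, a description chosen after the values had been seen and given with no test. They occurred in 4 of the 26 lower genes that have a window (Slc7a11, Slc1a4, Chac1 and Atf3), in 0 of the 40 higher genes and in 3 of the 61 genes that did not pass. Of 27025 genes with a window, 4.51% hold them. Slc7a11 was sure to be among the 4, since the letters looked up were those seen in its window. A part of ATF4 in these differences was not tested.

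The 5 genes whose profiles lay nearest to that of Slc7a11, by the Euclidean distance of centred log2 CPM over the 6 libraries among 9962 genes with a mean of at least 5 CPM, were Fam71f1 (distance 0.50), Prkcb (0.53), Slc1a7 (0.57), Aldh1l2 (0.64) and Mmp10 (0.65). Their log2 fold changes were -3.20, -2.94, -3.83, -2.62 and -3.55. A small distance requires a difference between the groups like that of Slc7a11, so these values follow from the selection. Aldh1l2, a mitochondrial folate enzyme, was the most abundant of them, at 301 ± 22.5 CPM in sh-NC and 49.0 ± 3.48 CPM in sh-TonEBP.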

How the data were processed

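Raw read counts per gene of 6 libraries, deposited by the authors, were used. The authors sequenced poly(A) RNA, and GRCm39 is the build in the submitters' processing notes, beside the tools HISAT2 2.0.5, HTSeq 0.9.1, cutadapt 1.15 and DESeq 1.30.0. The strand setting, the annotation release and how reads that map to several places were counted were not given in the sources used here. Genes with near-identical copies, such as Gpx4, Fth1 and Ftl1, are therefore uncertain to that extent. TonEBP is not named in the columns taken as sh-TonEBP, which were assigned as the second of the 2 shRNAs in the series.

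Identifiers were matched to symbols for 21795 of 21899 genes (the other 104 held 0.067% of counts). Of 3 list symbols with a second identifier (Ddit3, Nnt and Dpep2), the one with counts was taken, and Peds1 was not matched. Within groups the chi-square of counts per degree of freedom was 5.33 to 29.3, so no libraries were merged.

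edgeR 4.0.16 in R 4.3.3 (filterByExpr, TMM, robust quasi-likelihood test, Benjamini-Hochberg over all 11943 genes tested) called genes at an adjusted p under 0.05. The biological coefficient of variation was 0.135 in common over genes. CPM are TMM-normalized and errors are SD. Transcript length and GC content are those of the longest protein-coding transcript in GENCODE M21 (GRCm38), and offsets removed each library's lowess trend (span 0.3) on either. Other alternatives were DESeq2 1.42.0, RLE factors, library totals, the replicate block, a minimum mean of 1 CPM, no filter, leaving out each library, and the study's cutoffs. The steps were tested on simulated data.

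The members, lists and tests were chosen with earlier results of these data known. Named are the 10 members, Nfat5, a fixed set of pathway genes, up to 2 called genes per list and direction with the smallest p, and the 5 nearest profiles to Slc7a11. Atf3, Ggt7, Col3a1, Col1a1, Col1a2, Dcn, Gnmt, Gpx3 and Aloxe3 were named after their values were seen.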

Additional observations from a re-analysis of the deposited data

How the results depend on the processing

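Over the 16 alternative fits, the 6 called members kept their direction and call. The study's cutoffs (fold above 2, unadjusted p under 0.05) were applied to the edgeR fit, while the paper used DESeq2, so these counts are not the paper's. With them 762 genes were higher and 1019 lower (6.38% and 8.53%), with 1 member higher (Ggt5) and 1 lower (Slc7a11). Slc3a2 was called with GC content offsets, without sh-TonEBP replicate 1 and with the block and either offset, which gave 4 lower members, and Gclm with GC content offsets, which gave 4 higher.

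The sign of genes near 0 turned. With GC content offsets alone and with the replicate block, log2 fold changes were -0.17 and -0.18 for Aifm2, -0.0012 and -0.0016 for G6pdx, 0.26 and 0.27 for Acsl3, -0.063 and -0.064 for Dhodh, -0.18 and -0.16 for Hmox1, 0.059 and 0.058 for Ncoa4, and 0.088 and 0.10 for Nfe2l2. With length offsets alone and with the block they were -0.078 and -0.077 for Prdx6 and -0.17 and -0.16 for Hmox1. Leaving out 1 library gave -0.049 to 0.19 for Gclm, -0.055 to 0.16 for Aifm2, -0.040 to 0.071 for Prdx6, -0.26 to 0.085 for Acsl3, -0.14 to 0.27 for Hmox1 and -0.17 to 0.087 for Nfe2l2. The cause was not tested.

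Replicate numbers did not pair the libraries (correlations of deviations 0.195, 0.05 and -0.108). The replicate block gave 3147 higher and 3289 lower genes, beside 3140 and 3130 without it, and 3 members in each direction. The length and GC trends limit changes of a size like that of Gpx4 or Acsl4, and low counts limit Ggt5.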
